A study of Mus musculus with 17 samples.

Results

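Interferon-stimulated genes were followed across sorted bone marrow cells that carry or lack proteins held at the surface by a glycosylphosphatidylinositol (GPI) anchor. The set is a list of 38 interferon-induced antiviral, sensor and GTPase genes and their transcription factors, and its probe sets are those whose only gene symbol in the platform annotation is a listed gene. By that rule 36 of the 38 genes were measured, by 57 of the 45101 probe sets on each array, and they are 36 of the 14245 genes tested. Ifi44 had no probe set under its own symbol alone, and Isg15 was read only by a probe set shared with Gm9706, so neither was tested. All 57 probe sets passed the filter on dim signals, which asks that 3 or more arrays reach their 40th percentile. The brightest probe set stood for each gene, and 35 of the 36 genes were above that limit on all 17 arrays, the exception being Mx2, which was above it on 4.

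Total RNA was measured on 17 Affymetrix arrays in 2 batches. Marrow was taken from the long bones of the hind leg, labelled with fluorescein-tagged antibodies to CD24, CD48 and Gr-1 and sorted, per the labels' protocols, into GPI-deficient and GPI-normal cells. Batch 1 held GPI-negative (n = 3) and GPI-positive cells (n = 3) of Pig-a knock-out mice. Batch 2 held GPI-negative cells of C57BL/6 mice transplanted with enriched marrow of Pig-a knock-out donors (n = 4), GPI-positive cells of C57BL/6 mice transplanted with wild-type marrow (n = 3) and GPI-positive cells of untransplanted wild-type C57BL/6 mice (n = 4). The last 3 groups are also called knock-out grafts, wild-type grafts and wild type. The donor marrow of the first of these had been kept for 30 minutes with 10 nM aerolysin, a toxin that lyses cells with GPI-anchored proteins, and its recipients had received 9 Gy of total body irradiation. The labels give neither step for recipients of wild-type marrow. The promoter or cell type in which Pig-a was deleted, the ages, the time after transplantation and the number of animals behind the arrays are unstated in the labels. Graft cells were not separated from surviving host cells other than by the GPI sort. The titles speak of biological replicates but name no animals, and the p-values below therefore rest on array-to-array spread, which may be partly technical.

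Type I interferons bind the receptor of Ifnar1 and Ifnar2 and activate a complex that holds Stat2 and Irf9 and binds interferon-stimulated response elements (ISRE) in the promoters of antiviral genes. Interferon gamma acts through its own receptor and gamma-activated sites (GAS) in promoters, and induces Irf1 and the immunity-related GTPases. Plasmacytoid dendritic cells are a main source of type I interferon, and T and natural killer (NK) cells are a main source of interferon gamma. Fewer cells of a type and less RNA per cell cannot be told apart in these bulk samples.

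The promoters of 26 of the 36 genes were found in a RefSeq promoter table of mouse assembly GRCm38.p6, and the 250 bases before the annotated start were searched. The other 10 were not matched and so not searched. They are Dhx58, Ifi27l2a, Iigp1, Mx1, Mx2, Oas2, Parp14, Rtp4, Usp18 and Zbp1. The ISRE core, GAAANNGAAA on either strand with overlapping matches kept, was present in 12 of the 26 genes (46.2%), against 936 of 27025 genes in the table (3.46%). It was found in 4 of 5 interferon gamma-inducible GTPases, 4 of 9 antiviral effectors, 2 of 4 oligoadenylate synthetase genes, 1 of 4 transcription factors, 1 of 3 sensors and not in the single ubiquitin-pathway gene matched. The GAS core, TTCNNNGAA, which is its own reverse complement, was present in 4 of 26 (15.4%) against 8.13% of genes in the table, and Igtp and Oas1a held both. A match describes the letters only, and a window without one says nothing about the factor.

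The 4 promoters printed here come from the matched genes alone. They belong to genes given below with the value of every array that hold an ISRE core, with the largest called difference between recipients. Each reads 5′ to 3′ on the plus strand, on which the gene lies, and capitals mark the ISRE core. They are Gbp2 (chr3:142620413-142620662), Gbp3 (chr3:142559794-142560043), Igtp (chr11:58199306-58199555) and Stat2 (chr10:128270248-128270497).
Gbp2: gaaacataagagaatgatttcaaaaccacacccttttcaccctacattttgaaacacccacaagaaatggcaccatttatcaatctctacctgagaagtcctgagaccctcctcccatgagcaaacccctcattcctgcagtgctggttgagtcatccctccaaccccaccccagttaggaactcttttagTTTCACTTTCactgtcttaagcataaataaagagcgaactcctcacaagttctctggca
Gbp3: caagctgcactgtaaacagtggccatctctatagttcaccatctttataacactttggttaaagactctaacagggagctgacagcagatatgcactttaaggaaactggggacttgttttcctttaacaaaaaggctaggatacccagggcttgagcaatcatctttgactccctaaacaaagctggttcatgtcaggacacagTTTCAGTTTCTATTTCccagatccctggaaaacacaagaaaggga
Igtp: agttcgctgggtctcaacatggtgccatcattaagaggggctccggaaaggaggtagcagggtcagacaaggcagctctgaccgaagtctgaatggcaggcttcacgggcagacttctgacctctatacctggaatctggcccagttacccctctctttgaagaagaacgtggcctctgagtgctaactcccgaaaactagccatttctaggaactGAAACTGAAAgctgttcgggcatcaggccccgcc
Stat2: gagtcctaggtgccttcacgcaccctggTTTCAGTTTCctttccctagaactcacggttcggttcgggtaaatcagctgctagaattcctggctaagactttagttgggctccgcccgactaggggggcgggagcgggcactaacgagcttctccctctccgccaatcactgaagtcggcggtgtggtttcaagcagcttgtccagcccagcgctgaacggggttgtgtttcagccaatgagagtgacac
The core lay 59 to 50 bases before the start in Gbp2 and 34 to 25 bases before it in Igtp. Gbp3 held 2 overlapping cores, 45 to 36 and 39 to 30 bases before its start. In Stat2 the core was farther away, at 222 to 213 bases. Igtp also held a GAS core 45 to 37 bases before its start.

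Across the series, Piga itself had a log2 level of 1.65 to 1.92 in knock-out GPI-negative cells and 3.54 to 4.11 in knock-out GPI-positive cells, and 0.28 to 0.92 in recipients of knock-out marrow against 4.02 to 4.30 in the other groups of batch 2. All levels below are deposited log10 signals converted to log2. All but the hybridisation controls were centred on a common array median, and levels are compared only within a batch and within a gene. The mean level of 9 T and NK cell markers was 5.50 to 5.60 in knock-out GPI-negative cells and 1.91 to 2.03 in knock-out GPI-positive cells. It was 3.43 to 4.48 in recipients of knock-out marrow, 2.01 to 2.32 in recipients of wild-type marrow and 2.18 to 2.64 in wild type. The mean of 8 plasmacytoid dendritic cell markers was 4.74 to 4.80, 3.22 to 3.31, 4.35 to 4.87, 3.47 to 3.73 and 3.98 to 4.19 in the same order of groups, and that of 7 neutrophil markers was 8.63 to 8.77, 9.71 to 9.77, 9.28 to 9.67, 9.66 to 9.79 and 9.42 to 9.75. No marker was listed at 0 on any array. The hybridisation controls, bacterial and phage transcripts added in fixed amounts, averaged 8.55 to 9.16 in knock-out GPI-negative and 6.80 to 7.24 in knock-out GPI-positive arrays. Over batch 2 they averaged 6.58 to 7.70, which is not set against batch 1 since these values were not centred. The marker levels and the controls thus moved with the sort in batch 1.

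**Figure D1:**
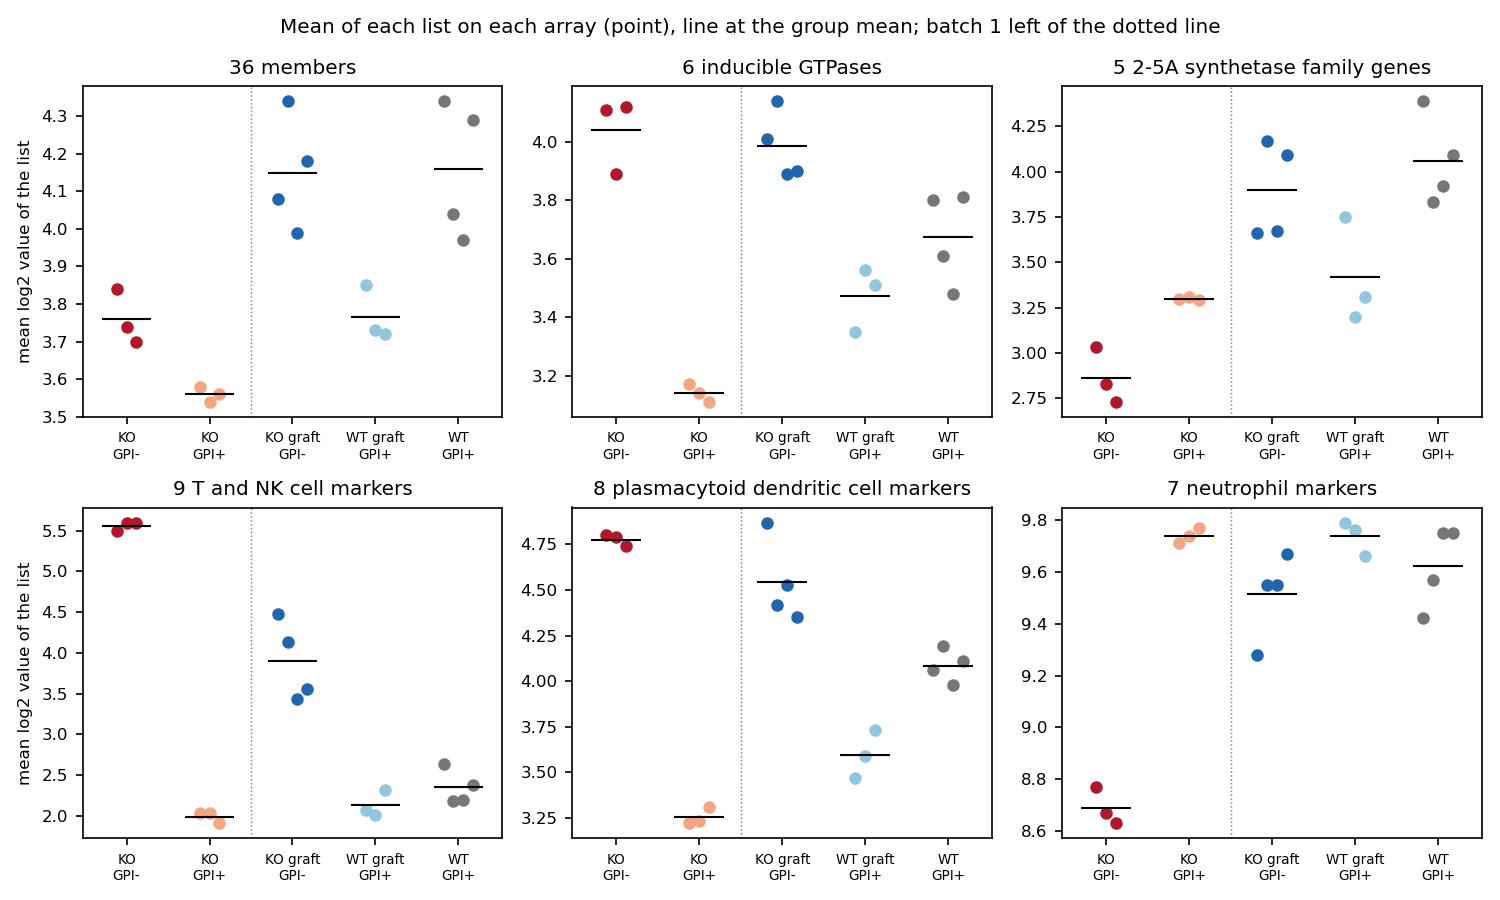
Mean log2 level of 6 gene lists on each of the 17 arrays, with 1 point per array, a line at the group mean and a dotted line between the batches. KO is the knock-out, KO graft and WT graft are recipients of knock-out and wild-type marrow, WT is untransplanted wild type, and members are the interferon-stimulated genes. The T and NK cell markers lie at 5.50 to 5.60 in knock-out GPI-negative arrays and at 1.91 to 2.03 in knock-out GPI-positive arrays, while the interferon-stimulated genes lie between 3.54 and 4.34 on every array.

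The 4 transcription factors were read on every array. Irf9, the DNA-binding part of the complex that binds the ISRE, read 4.69, 4.54 and 4.53 in knock-out GPI-negative and 4.42, 4.54 and 4.38 in knock-out GPI-positive cells. In batch 2 it read 4.92, 4.96, 4.94 and 5.11 in recipients of knock-out marrow, 4.44, 4.29 and 4.51 in recipients of wild-type marrow and 5.25, 4.99, 4.86 and 5.23 in wild type. All recipients of wild-type marrow were below all other arrays of the batch, whereas the groups of batch 1 met at 4.54. Stat2, the transactivating part of that complex, read 2.83, 2.81 and 2.72 in knock-out GPI-negative and 2.85, 2.73 and 2.77 in knock-out GPI-positive cells. It read 2.67, 2.66, 2.93 and 2.90 in recipients of knock-out marrow, 2.14, 2.29 and 2.48 in recipients of wild-type marrow and 2.64, 2.64, 2.86 and 2.90 in wild type. Stat2 overlapped between the groups of batch 1, and recipients of wild-type marrow were again below the rest of batch 2 on this probe set. A further probe set of Stat2 averaged 2.06 in knock-out grafts, 1.86 in wild-type grafts and 1.85 in wild type.

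Irf7, which amplifies type I interferon production, read 4.24, 4.01 and 3.64 in knock-out GPI-negative and 3.82, 4.05 and 3.48 in knock-out GPI-positive cells, with overlap. It read 3.70, 3.98, 3.87 and 3.73 in recipients of knock-out marrow, 3.36, 3.22 and 3.10 in recipients of wild-type marrow and 4.45, 3.78, 3.60 and 4.28 in wild type, so recipients of wild-type marrow were lowest and wild type spread widest. Irf1, a factor induced by interferon gamma, had a different order. Its values were 5.78, 5.35 and 5.40 in knock-out GPI-negative and 4.88, 4.96 and 4.98 in knock-out GPI-positive cells. They were 5.19, 5.45, 5.47 and 5.25 in recipients of knock-out marrow, 4.96, 4.87 and 4.92 in recipients of wild-type marrow and 4.87, 4.89, 4.76 and 4.69 in wild type. Irf1 was thus higher in GPI-negative than in GPI-positive cells on every array of either batch.

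**Figure D2:**
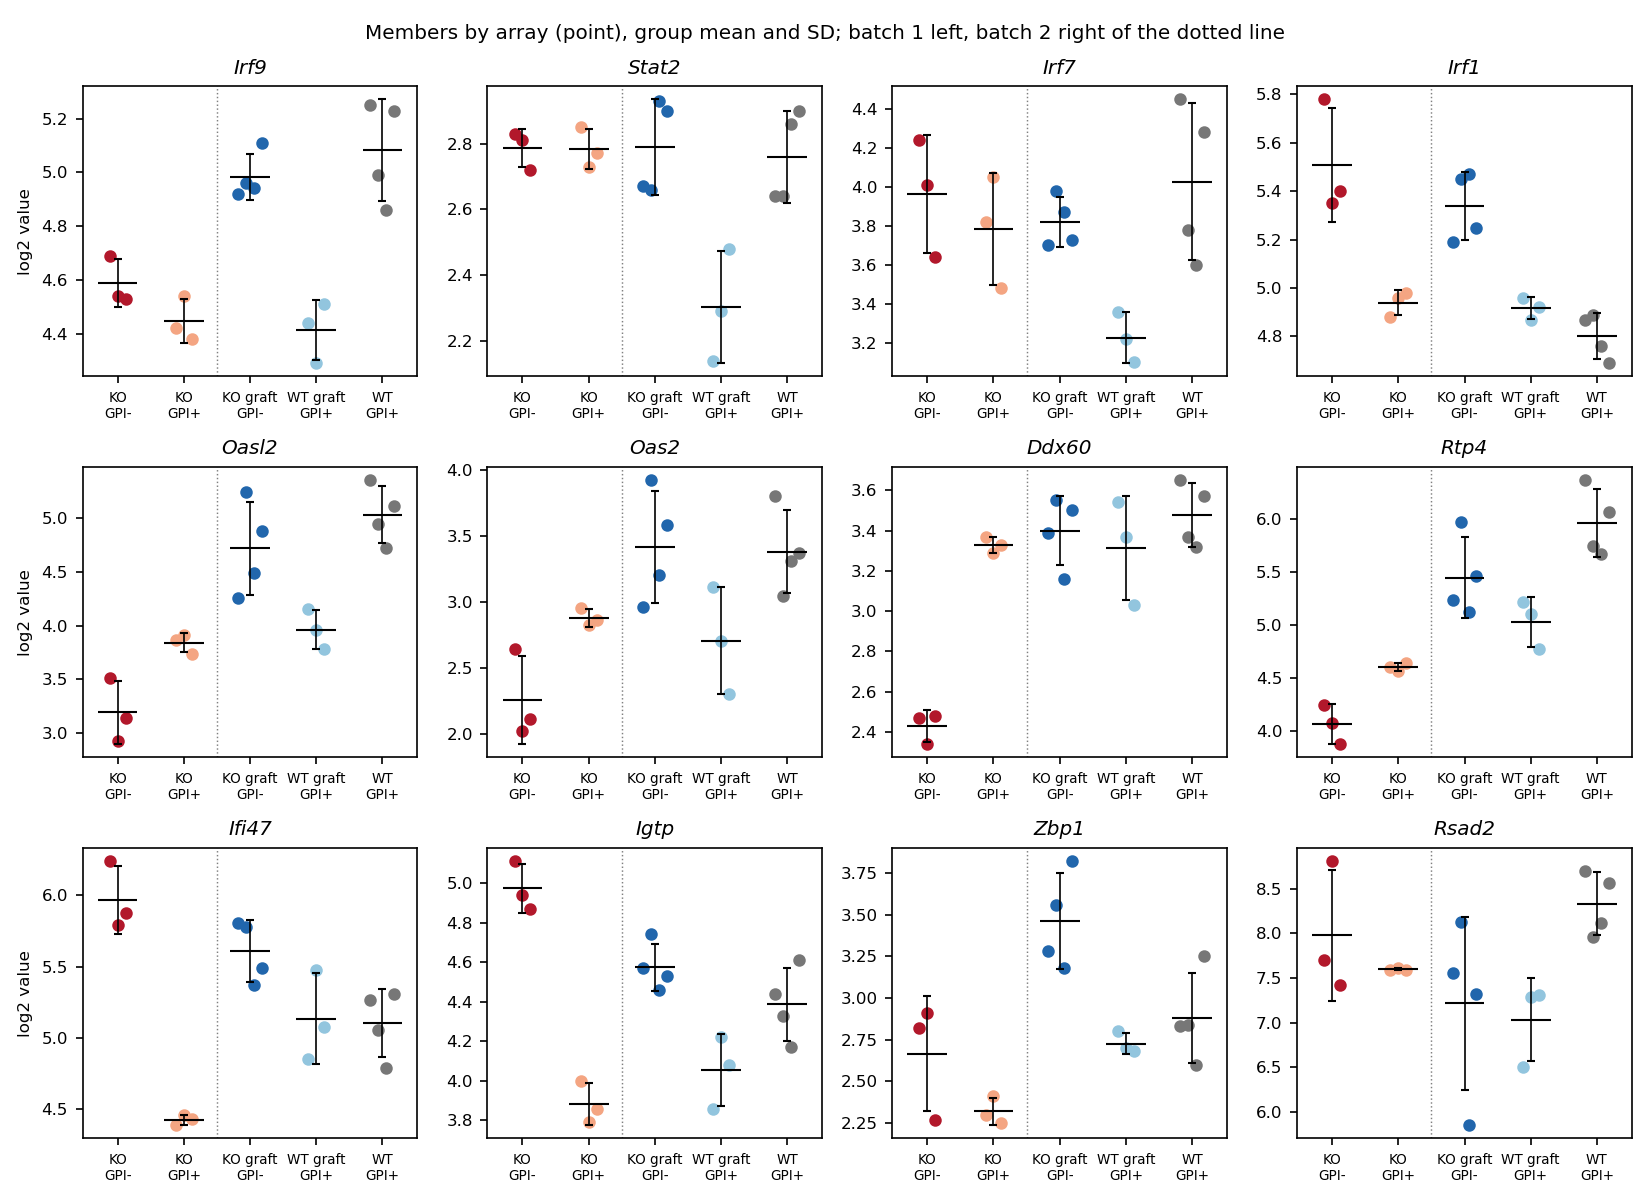
Log2 level on every array for 12 of the genes, with 1 point per array, a line at the group mean, bars for the SD and a dotted line between the batches. KO is the knock-out, KO graft and WT graft are recipients of knock-out and wild-type marrow, and WT is untransplanted wild type. Irf9 in recipients of wild-type marrow sits between 4.29 and 4.51, below the other arrays of batch 2, and Ifi47 in knock-out GPI-negative cells sits between 5.79 and 6.24, above the 4.39 to 4.46 of knock-out GPI-positive cells.

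In Pig-a knock-out marrow, GPI-negative cells were set against GPI-positive cells of the same batch. Of the interferon gamma-inducible GTPases, 5 of 6 rose and none fell. Of the 14 antiviral effectors 5 rose and 3 fell, and 2 of 5 synthetases and 2 of 5 sensors fell with none of either higher. Of the 36 genes, 12 rose and 7 fell, and 17 did not pass an adjusted p of 0.05 (limma, Benjamini-Hochberg over all genes tested). Over all genes, 14.8% were called higher and 14.8% lower, so that the 19.4% of members that fell lie near the background. The median log2 difference of the 36 was 0.20, against -0.01 over all genes, with a range of -0.90 to 1.54.

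Ifi47, an immunity-related GTPase, read 6.24, 5.79 and 5.88 in GPI-negative and 4.39, 4.46 and 4.43 in GPI-positive cells. It was 2.92-fold higher (log2 difference 1.54 ± 0.17 SE, adjusted p = 4.4e-07), and its groups were more than 1 log2 unit apart. Igtp, a GTPase of the same family, read 5.11, 4.94 and 4.87 against 4.0, 3.79 and 3.86 and was 2.13-fold higher (1.09 ± 0.13, adjusted p = 1e-06). Iigp1, a GTPase that acts on pathogen vacuoles, read 2.60, 2.53 and 3.01 against 1.85, 1.63 and 1.61 and was 2.02-fold higher (1.01 ± 0.16, adjusted p = 4.3e-05). The 4th largest call was Gbp2, a guanylate-binding protein, at 3.80, 3.68 and 3.81 against 2.84, 2.74 and 2.75, or 1.99-fold (0.99 ± 0.12, adjusted p = 2e-06). None of these 4 overlapped between the groups, and each had an exact two-sided permutation p of 0.1, the smallest that 3 arrays against 3 allow. Of the members that did not pass, 2 were also without overlap. The share of all genes without overlap was not counted in any comparison, so such counts have no background to be read against. Irgm1 was 1.45-fold higher, and Gbp3 did not pass (0.23 ± 0.15, adjusted p = 0.27).

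Of the 4 factors, Irf1 was 1.48-fold higher (0.57 ± 0.12, adjusted p = 0.00085), while Irf9 (0.14 ± 0.11), Stat2 (0.00 ± 0.12) and Irf7 (0.18 ± 0.19) did not pass. The 5 effectors that rose were Xaf1, a pro-apoptotic protein, at 1.81-fold, Mx1, annotated as a transcribed pseudogene in the C57BL/6J reference, at 1.65-fold, Ifi27l2a at 1.63-fold, Parp14, an ADP-ribosyltransferase, at 1.62-fold and Ifi35 at 1.56-fold. Herc6, the mouse ligase for Isg15, was 1.34-fold higher (adjusted p = 0.039), although a further probe set of it had a difference of -0.12. Of 14 further probe sets of called genes, the other 13 had the sign of the probe set used. Some were near it in size (0.95 for Iigp1, -0.79 for Ddx60, -0.71 for Cmpk2). Others were smaller (0.36 for Gbp2, 0.14 for Xaf1, 0.06 and 0.07 for Herc6).

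The lower calls were led by the helicase-like gene Ddx60, which read 2.47, 2.34 and 2.48 in GPI-negative and 3.37, 3.29 and 3.33 in GPI-positive cells. It was 1.87-fold lower (-0.90 ± 0.13, adjusted p = 2.6e-05), with no overlap. Oasl2 and Oas2, of the oligoadenylate synthetase family that activates RNase L, were 1.57-fold and 1.54-fold lower (adjusted p = 0.019 and 0.048), and Oas1a, Oas3 and Oasl1 did not pass. Cmpk2, a nucleotide kinase next to Rsad2, was 1.52-fold lower, Rtp4 1.44-fold, the RNA helicase Dhx58 1.34-fold and Samd9l 1.30-fold. Rsad2, which encodes the antiviral enzyme viperin, read 7.70, 8.81 and 7.42 against 7.59, 7.61 and 7.59 and did not pass (0.38 ± 0.40, adjusted p = 0.52).

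All 9 T and NK cell markers tested, all 8 plasmacytoid dendritic cell markers and 4 of 5 B cell markers rose in the same comparison. Of the neutrophil markers 6 of 7 fell, of the 8 monocyte and macrophage markers 5 fell and 1 rose, and the part of these cells in the results was not tested. The 3 knock-out GPI-positive arrays had a median SD of 0.08 over the 36 genes (0.10 over all genes), and with them averaged into 1 sample the calls fell to 8 (7 higher, 1 lower), namely Irf1, Parp14, Ifi35, Gbp2, Igtp, Iigp1, Ifi47 and Ddx60. Of the 19 calls, 12 were kept whichever array was left out. Herc6 was lost without GPI-negative replicate 2 (0.23, adjusted p = 0.24) or any 1 GPI-positive array, Samd9l was lost without GPI-negative replicate 2, and Cmpk2 was lost without GPI-negative replicate 1. Dhx58 was lost without replicate 3 of either group, Oasl2 without 4 of the 6 arrays, and Oas2 and Rtp4 without any array but GPI-negative replicate 1 (adjusted p up to 0.15).

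Recipients of knock-out marrow were then set against recipients of wild-type marrow, which compares GPI-negative with GPI-positive cells after transplantation. Of the 36 genes, 17 rose, none fell and 19 did not pass, and 33 had a difference above 0. Over all genes, 3.95% were called higher and 3.45% lower, and 6979 of 14245 had a difference above 0. The median log2 difference was 0.42, against -0.01 over all genes, with a range of -0.12 to 0.76. Calls came from every role, with all 4 factors, 2 of 5 synthetases, 1 of 5 sensors, 1 of 2 ubiquitin-pathway genes, 4 of 14 effectors and 5 of 6 GTPases. None of the 36 was lower at an adjusted p of 0.05 by limma, and 23 (63.9%) had an unadjusted p below 0.05, against 19.7% of all genes.

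Irf9 was 1.48-fold higher (0.57 ± 0.11, adjusted p = 0.0019), Irf7 1.51-fold (0.59 ± 0.18, adjusted p = 0.049), Stat2 1.40-fold (0.49 ± 0.11, adjusted p = 0.009) and Irf1 1.34-fold (0.43 ± 0.11, adjusted p = 0.019). No factor overlapped between the 2 groups, at the smallest exact two-sided permutation p that 4 arrays against 3 allow, 0.05714. A further probe set of Stat2 had a difference of 0.20. Usp18, the protease that removes Isg15 from proteins and dampens receptor signalling, had the largest difference. It read 3.98, 3.85, 3.05 and 3.62 in recipients of knock-out marrow and 2.80, 2.75 and 3.05 in recipients of wild-type marrow, or 1.7-fold higher (0.76 ± 0.18, adjusted p = 0.011), the groups touching at 3.05.

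Oasl2 read 4.26, 5.24, 4.49 and 4.88 against 4.15, 3.96 and 3.78 and was 1.68-fold higher (0.75 ± 0.19, adjusted p = 0.016). Zbp1, a sensor of Z-form nucleic acids that can trigger necroptosis, read 3.28, 3.56, 3.18 and 3.82 against 2.80, 2.70 and 2.68 and was 1.66-fold higher (0.73 ± 0.17, adjusted p = 0.0082). Oas2 read 2.96, 3.92, 3.20 and 3.58 against 3.11, 2.70 and 2.30 and was 1.64-fold higher (0.71 ± 0.22, adjusted p = 0.049). Oas2 was the only one of the 17 called genes whose groups overlapped, since replicate 1 of the knock-out grafts (2.96) lay below replicate 1 of the wild-type grafts (3.11). Of the members that did not pass, 4 were also without overlap, and the share over all genes was not counted.

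Within the GTPases, Gbp2 (3.36, 3.66, 3.28 and 3.43 against 2.83, 2.94 and 2.83) and Gbp3 (3.53, 4.07, 3.63 and 3.80 against 3.26, 3.17 and 3.16) were each 1.48-fold higher. Iigp1 (2.63, 2.62, 2.32 and 2.01 against 1.76, 1.85 and 1.93) was 1.46-fold higher. Igtp (4.57, 4.74, 4.46 and 4.53 against 3.86, 4.22 and 4.08) was 1.43-fold higher and Irgm1 1.34-fold. Gbp2, Gbp3 and Igtp are 3 of the genes whose ISRE cores are shown above. Ifi47 (5.81, 5.78, 5.37 and 5.49 against 4.85, 5.48 and 5.08) overlapped and did not pass (0.47 ± 0.15, adjusted p = 0.07). Of the effectors, Trim30a (1.61-fold), Ifi27l2a (1.56-fold), Mx1 (1.44-fold) and Parp14 (1.30-fold) rose, and the other 10, among them the 3 Ifit genes, Rsad2 and Cmpk2, did not pass.

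The 9 T and NK cell markers (median log2 difference 2.14) and 5 of 8 plasmacytoid dendritic cell markers (0.74) also rose here. Of the erythroid markers 4 of 6 fell (-1.07), of the neutrophil markers 3 of 7 fell (0.00), and of the 8 monocyte and macrophage markers 4 fell and 3 rose (-0.40). The part of these cells in the results was not tested. Of the 17 calls only Gbp2, Irf9 and Zbp1 were kept whichever array was left out. Calls counted without an array can include genes not called with all of them. The count was 8 without replicate 2 and 10 without replicate 4 of the knock-out grafts. It was 11, 7 and 8 without replicates 1, 2 and 3 of the wild-type grafts. Mx1 moved from 0.52 to 0.32 (adjusted p = 0.24) without replicate 2 of the latter. Adjusted p rose to 0.06 for Usp18 without that same array, to 0.058 for Stat2 without replicate 1 of that group, and to at most 0.28 for Oas2, 0.18 for Irf7, 0.094 for Oasl2 and 0.085 for Irf1 over the arrays left out.

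**Figure D3:**
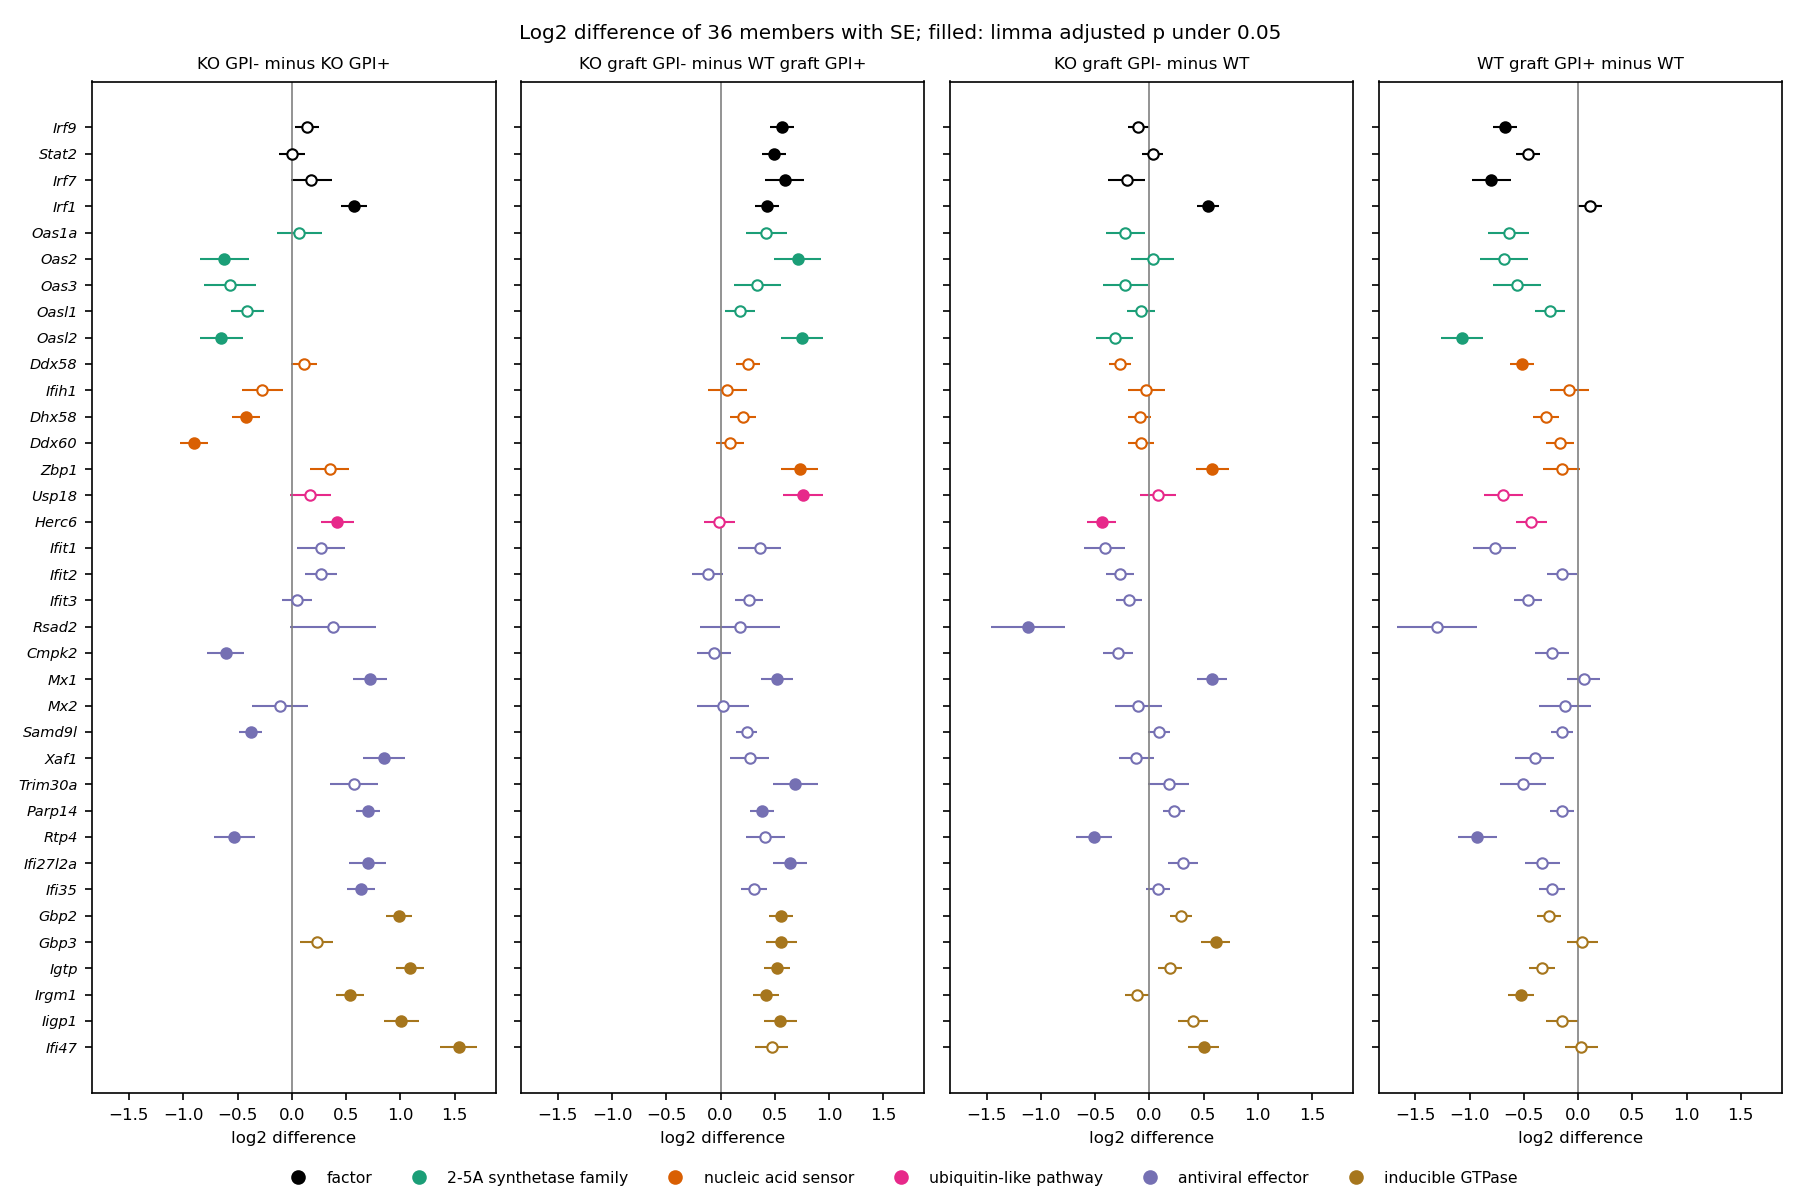
Log2 difference of each tested gene in each comparison, ordered and coloured by role (2-5A synthetases are the oligoadenylate synthetases), with a panel for each comparison, bars for the standard error and filled points for calls at an adjusted p of 0.05. Between recipients 33 of 36 points lie above 0 (6979 of 14245 over all genes). In the panel of wild-type grafts against wild type 32 of 36 lie below 0 (6436 of 14245 over all genes).

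Recipients of knock-out marrow were also set against untransplanted wild type, a comparison that shares the knock-out recipients' arrays with the one just given. The members were split, with 5 higher, 3 lower and 28 not passed, while over all genes 6.84% were called higher and 5.55% lower. Their median was -0.08, against 0.02 over all genes. Gbp3 read 3.53, 4.07, 3.63 and 3.80 in recipients of knock-out marrow and 3.32, 3.08, 2.99 and 3.22 in wild type, or 1.52-fold higher (0.61 ± 0.13, adjusted p = 0.003), with no overlap. Mx1 read 2.55, 2.88, 2.66 and 2.70 against 2.04, 2.30, 1.94 and 2.20 and was 1.49-fold higher (0.58 ± 0.14, adjusted p = 0.0068), again with no overlap. Zbp1, with wild type at 2.83, 2.84, 2.60 and 3.25, was 1.5-fold higher (0.58 ± 0.15, adjusted p = 0.015), and its groups overlapped through wild-type replicate 4. Irf1 was 1.45-fold higher (0.54 ± 0.10, adjusted p = 0.0011) and Ifi47 1.42-fold (adjusted p = 0.023), both without overlap.

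The lower calls were Rsad2, Rtp4 and Herc6. Rsad2 read 7.56, 8.13, 5.85 and 7.32 in recipients of knock-out marrow and 8.70, 7.96, 8.12 and 8.56 in wild type, or 2.18-fold lower (-1.12 ± 0.34, adjusted p = 0.036), with overlap and with replicate 3 of the recipients far below the rest. Without that array the difference was -0.67 (adjusted p = 0.13). Rtp4 was 1.43-fold lower (adjusted p = 0.046) and Herc6 1.36-fold (adjusted p = 0.028). Irf9 (-0.10 ± 0.10, adjusted p = 0.6), Stat2 (0.03 ± 0.10, adjusted p = 0.91) and Irf7 (-0.21 ± 0.17, adjusted p = 0.5) did not pass.

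Non-overlapping groups of 4 and 4 have an exact two-sided permutation p of 0.02857, the smallest possible. The 9 T and NK cell markers rose in this comparison too, as did 4 of 8 plasmacytoid dendritic cell markers, of which 1 fell. All 6 erythroid markers, 2 of 5 B cell markers and 1 of 7 neutrophil markers fell, of the 8 monocyte and macrophage markers 4 fell and 3 rose, and their part was not tested. The calls of Gbp3, Irf1 and Mx1 were kept whichever array was left out. The count fell from 8 to 5 without replicate 3 or 4 of the recipients or replicate 4 of wild type. Such a count can include genes not called with all arrays. Without replicate 4 of the recipients the calls of Herc6, Rsad2, Rtp4 and Zbp1 were lost. Zbp1 was also lost without replicate 3 of wild type (adjusted p up to 0.07).

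Recipients of wild-type marrow were set against untransplanted wild type, which are GPI-positive cells with and without transplantation and share arrays with both comparisons above. The members lay mostly below 0, in 32 of 36 cases (6436 of 14245 over all genes), with a median of -0.33 against 0.02 over all genes. Of the 36, 6 fell, none rose and 30 did not pass, while over all genes 0.449% were called higher and 0.393% lower. The 6 were Oasl2, Rtp4, Irf7, Irf9, Irgm1 and Ddx58, and 21 of the 36 (58.3%) had an unadjusted p below 0.05 by limma, against 14.1% of all genes.

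Oasl2 read 4.15, 3.96 and 3.78 in recipients of wild-type marrow and 5.35, 4.94, 4.72 and 5.11 in wild type, or 2.10-fold lower (-1.07 ± 0.19, adjusted p = 0.0087). Rtp4, a chaperone-like protein with antiviral activity, read 5.22, 5.10 and 4.77 against 6.36, 5.74, 5.67 and 6.06 and was 1.9-fold lower (-0.93 ± 0.18, adjusted p = 0.016). Irf7 was 1.74-fold lower (-0.80 ± 0.18, adjusted p = 0.039) and Irf9 1.59-fold lower (-0.67 ± 0.11, adjusted p = 0.0079). None of the 6 overlapped between the groups, at the smallest exact two-sided permutation p for 3 arrays against 4, 0.05714. Of the members that did not pass, 7 were also without overlap, with the share over all genes not counted. Stat2 was 1 of these (-0.46 ± 0.11, adjusted p = 0.06), with a further probe set of it at 0.01. Ifit1 (-0.77 ± 0.20, adjusted p = 0.076) and Rsad2 (-1.30 ± 0.37, adjusted p = 0.1) were others. Irf1 was at 0.11 ± 0.11 (adjusted p = 0.71).

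Irgm1 was 1.45-fold lower (adjusted p = 0.04) and Ddx58, which encodes the RNA sensor RIG-I, 1.43-fold lower (adjusted p = 0.032). A further probe set of Rtp4 had a difference of 0.08, opposite to the one used. None of the T and NK cell markers passed here, nor did any B cell or erythroid marker. Of the plasmacytoid dendritic cell markers Siglech fell (-0.86), 1 of 8 monocyte and macrophage markers fell and 1 of 7 neutrophil markers rose, and their part was not tested. Irf9 and Oasl2 were kept whichever array was left out, whereas the count was 3 without replicate 1 or 2 of the recipients or replicate 4 of wild type and 2 without replicate 1 of wild type. Rtp4 was lost without replicate 3 of the recipients or replicate 1 of wild type (adjusted p up to 0.073), and Irf7 without 5 of the 7 arrays (up to 0.13).

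In batch 2 the recipients of wild-type marrow had the lowest of the 3 group means for 29 of 36 genes (80.6%, against 29.0% of all genes) and the highest for none. Wild type was highest for 20 and recipients of knock-out marrow for 16. The shared probe set of Isg15 and Gm9706, which was not tested, averaged 5.09 ± 0.66 (SD, n = 4) in wild type, 4.03 ± 0.69 (n = 4) after a knock-out graft and 3.89 ± 0.24 (n = 3) after a wild-type graft. In batch 1 it averaged 4.59 ± 0.99 (n = 3) in GPI-negative and 4.28 ± 0.05 (n = 3) in GPI-positive cells.

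The difference in knock-out marrow and the difference between recipients share no array, and their contrast was tested directly. Oas2 and Oasl2 fell in the knock-out and rose in recipients. They are 11.8% of the 17 genes that rose in recipients, near the 9.43% over all genes (53 of 562). They are 28.6% of the 7 that fell in the knock-out, against 2.52% of 2104 over all genes. The GTPases Ifi47 and Igtp had a greater difference in the knock-out than between recipients, where Ifi47 did not pass. Of the 36 genes, 2 had a contrast (knock-out minus recipients) called above 0 and 7 below 0. Over all genes, 9.04% were called above 0 and 9.96% below 0. A contrast below 0 need not be a smaller change, since Ddx60 differed by -0.90 in the knock-out and 0.09 between recipients. The median was -0.18 against 0.02 over all genes. Of the 12 genes that rose in the knock-out, 8 also rose in recipients (66.7% of those 12 and 47.1% of the 17), namely Gbp2, Ifi27l2a, Igtp, Iigp1, Irf1, Irgm1, Mx1 and Parp14. Over all genes, 301 rose in both comparisons, which is 14.3% of the 2102 higher in the knock-out and 53.6% of the 562 higher between recipients.

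Oasl2 read 3.51, 2.93 and 3.14 in knock-out GPI-negative and 3.87, 3.91 and 3.74 in knock-out GPI-positive cells, which set beside its rise between recipients gave a contrast of -1.40 ± 0.28 (adjusted p = 0.0012). Oas2 read 2.64, 2.02 and 2.11 against 2.95, 2.82 and 2.86 and had a contrast of -1.33 ± 0.32 (adjusted p = 0.0052). Both were lower on every knock-out GPI-negative array than on any GPI-positive one. Ddx60, which did not pass between recipients (3.39, 3.55, 3.16 and 3.50 against 3.54, 3.37 and 3.03), had a contrast of -0.99 ± 0.18 (adjusted p = 0.00072). Ifi47 had the greatest contrast in the other direction, 1.07 ± 0.23 (adjusted p = 0.0022). The contrasts of Rtp4, Dhx58, Samd9l, Stat2 and Igtp also passed, with those of Stat2 and Igtp ending when single arrays were left out. The contrast of Igtp was lost without knock-out GPI-negative replicate 1, knock-out GPI-positive replicate 2 or 3, or replicate 2 of the wild-type grafts (adjusted p up to 0.069). That of Stat2 was lost without any of 10 of the 13 arrays (up to 0.11). With the knock-out GPI-positive arrays averaged into 1 sample, 3 contrasts passed. Aerolysin treatment and irradiation, stated in the labels for the knock-out grafts alone, differ between the pair of contrasts. So do batch, RNA input, transplantation and the source of the GPI-positive cells, and all of these cannot be told apart. Those cells came from knock-out mice in batch 1 and from recipients of wild-type marrow in batch 2.

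**Figure D4:**
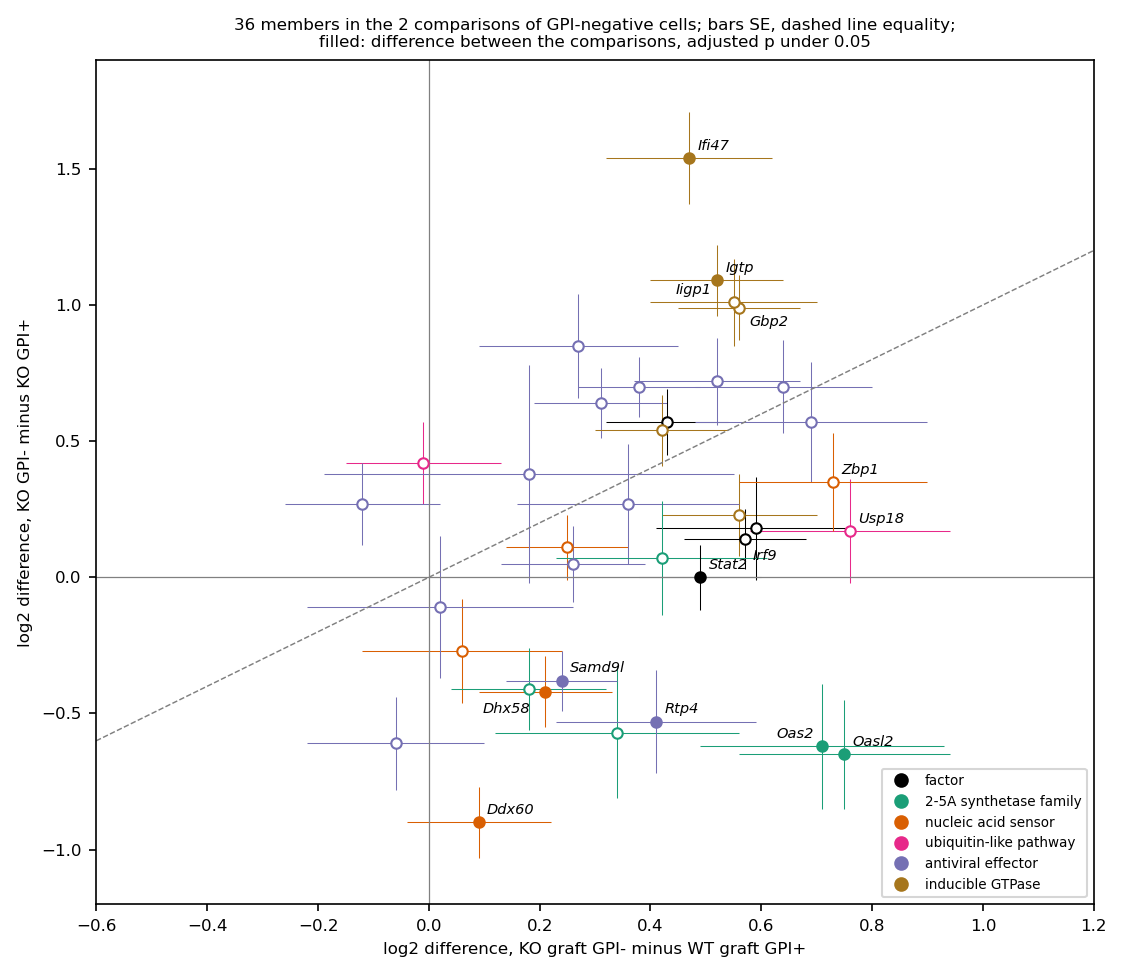
Log2 difference in knock-out marrow on the vertical axis against that between recipients on the horizontal axis, with 1 point per tested gene coloured by role, bars for the standard error, a dashed line of equality and filled points where the contrast passed an adjusted p of 0.05. Oas2 and Oasl2 lie right of 0 and below 0 (0.71 and 0.75 between recipients, -0.62 and -0.65 in the knock-out), and Ifi47 lies highest at 1.54.

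Within wild type and recipients of knock-out marrow, many of the genes lay on the same side of their group mean on the same array. The genes are thus not independent, and the counts of members in 1 direction given above rest on few arrays. In wild type, 31 of the 36 genes were above their group mean on replicate 1 and 30 on replicate 4, against 6 on replicate 2 and 3 on replicate 3, while 46.2% to 53.6% of all genes were above it on each of the 17 arrays. In recipients of knock-out marrow the counts were 12, 31, 8 and 24 for replicates 1 to 4. In recipients of wild-type marrow they were 25, 15 and 13 and in knock-out GPI-negative cells 29, 16 and 16, or 69.4% and 80.6% on replicate 1 and 36.1% to 44.4% on the others. Knock-out GPI-positive arrays had 20, 13 and 15 (55.6%, 36.1% and 41.7%), nearer to the share over all genes. The median SD over the 36 genes was 0.20 in wild type, against 0.15 over all genes, and 0.08 to 0.21 in the other groups, against 0.10 to 0.20 over all genes there. Rsad2 had the widest spread in knock-out GPI-negative cells and in either group of recipients.

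Of 30 further genes for interferons, their receptors and signalling, 24 were tested. In the knock-out 9 rose and 2 fell (37.5% and 8.33%, against 14.8% each over all genes), with Irf8, a factor of the monocyte and dendritic lineages, at 1.31 ± 0.13 (adjusted p = 2.1e-07), the interferon gamma receptor chain Ifngr2 at -1.09 ± 0.17 (adjusted p = 5e-05) and Ifng itself at 0.98 ± 0.19 (adjusted p = 0.00048). Between recipients 7 rose (29.2%, against 3.95%) and none fell, led by Irf8 (0.84 ± 0.12), the RNA receptor Tlr7 (0.57 ± 0.15) and the kinase Tyk2 (0.56 ± 0.14). Against wild type, recipients of knock-out marrow had 7 higher (29.2%, against 6.84%) and none lower, led by Irf5 (0.94 ± 0.16), Irf8 (0.85 ± 0.12) and Ifngr1 (0.72 ± 0.12). Between wild-type grafts and wild type none passed by limma, where 4 of 24 (16.7%) had an unadjusted p below 0.05, near the 14.1% of all genes. Ifnb1 did not pass in any of the 4.

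Of 46 further interferon-inducible genes, 38 were tested. In the knock-out 16 rose (42.1%) and 6 fell (15.8%, near the 14.8% over all genes), led by the antigen-presentation regulator Nlrc5 (2.22 ± 0.14, adjusted p = 5.1e-10), the tetherin gene Bst2 (2.02 ± 0.16) and Epsti1 (1.71 ± 0.11). Between recipients 15 rose (39.5%, against 3.95%) and none fell, led by Bst2 (1.60 ± 0.15), Nlrc5 (0.95 ± 0.14) and Slfn5 (0.89 ± 0.17). Against wild type, 9 rose (23.7%, against 6.84%) and 2 fell (5.26%, near the 5.55% over all genes) in recipients of knock-out marrow, including Bst2 (1.5 ± 0.14), the exonuclease Isg20 (-1.31 ± 0.33) and Ifitm3 (0.62 ± 0.17). Between wild-type grafts and wild type only B2m, the light chain of class I molecules, passed (-0.66 ± 0.16, adjusted p = 0.049). Bst2 encodes a protein that itself carries a GPI anchor and marks mouse plasmacytoid dendritic cells. The members called in none of the 4 comparisons were Oas1a, Oas3, Oasl1, Ifih1, Ifit1, Ifit2, Ifit3 and Mx2.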

How the data were processed

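Gene expression was measured on 17 arrays, 6 in batch 1 and 11 in batch 2. The authors deposited 1 log10-like value per probe set and array, up to 3.857 (array median 0.5154) in batch 1 and 3.895 (0.3866) in batch 2. No source used here states the base, the background correction or the probe summary, and the base was inferred from the values. GCOS, the array maker's software, is named without a role in the submitters' processing notes. Within each batch the sorted deposited values of all arrays were identical (largest difference 0), as after quantile normalization per batch, so centring removes no further difference within a batch. The labels' protocols give an RNA input of 500 ng for the first and 1000 ng for the second experiment, taken here to be batches 1 and 2.

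Values were converted to log2 and each array was centred on a common median. Control probe sets (64) were left out. The platform annotation gives 1 symbol to 34945 probe sets, several to 932 and none here to 9160. A probe set was kept where 3 or more arrays had it at or above their 40th percentile (32426 kept), and the brightest one with 1 symbol stood for its gene (14245 genes). One limma fit (version 3.58.1, R 4.3.3, eBayes with an intensity trend) of 5 group means over all 17 arrays, with 12 residual degrees of freedom and no replicate block, gave the contrasts within batches. Calls are Benjamini-Hochberg adjusted p under 0.05 over all genes, folds are the antilog of the absolute log2 difference, and errors are standard errors. Single genes were also compared by exact permutation tests (SciPy 1.17.1). The share of all genes whose groups do not overlap was not counted. The code was tested on simulated data. Precision is limited by the 3 or 4 arrays of a group.

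The interferon-stimulated genes, the further gene lists and the marker lists were chosen with earlier results of these data known. Values on every array are given for the 4 factors and for the 4 called genes with the largest absolute difference in each comparison, and further pathway genes by counts with the 3 largest calls named, except that Ddx60, Rsad2 and some GTPases were also given in other comparisons after their values were seen. Alternatives covered centring, quantile and cyclic loess normalization, the filter, the choice of probe set, the arrays fitted, the intensity trend, the replicate block, averaging the knock-out GPI-positive arrays and leaving out each array. Promoters came from a RefSeq table of GRCm38.p6, in which 10 of the 36 genes were not matched.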

Additional observations from a re-analysis of the deposited data

Results flagged for a closer look

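For 9 genes the difference between GPI-negative and GPI-positive cells was not the same in knock-out marrow and in recipients, by a limma test of the contrast between these differences (knock-out minus recipients, log2 ± SE, adjusted over all genes). The 7 negative contrasts were -1.40 ± 0.28 for Oasl2 (adjusted p = 0.0012), -1.33 ± 0.32 for Oas2 (0.0052), -0.99 ± 0.18 for Ddx60 (0.00072), -0.94 ± 0.26 for Rtp4 (0.015), -0.63 ± 0.18 for Dhx58 (0.015), -0.62 ± 0.15 for Samd9l (0.0067) and -0.48 ± 0.17 for Stat2 (0.045). The 2 positive ones were 1.07 ± 0.23 for Ifi47 (0.0022) and 0.57 ± 0.17 for Igtp (0.022). Negative calls made up 19.4% of the 36 genes tested, against 9.96% of all genes. Positive calls made up 5.56%, below the 9.04% of all genes. Of the 9, all but Igtp and Stat2 were kept whichever array was left out. Among 34 groups of 4 arrays, over the 17 genes given array by array in some comparison, no single array stood apart by Dixon's test. Groups of 3 arrays and the other genes of the set were not examined.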

How the results depend on the processing

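Of 59 called differences of single genes, none reversed under the alternatives run, 19 kept their call under each and 40 lost it under at least 1. Uncalled differences were not followed, and a further probe set of Rtp4 differed by 0.08 where the one used differed by -0.93 (wild-type grafts against wild type). With the knock-out GPI-positive arrays averaged, calls went from 19 to 8 in the knock-out and from 9 to 3 for the contrast of contrasts. Without the intensity trend, wild-type grafts against wild type had 3 calls in place of 6. Leaving out single arrays gave 15 to 19 calls in the knock-out, 7 to 15 between recipients (17 with all arrays), 5 to 9 for recipients of knock-out marrow against wild type (8), 2 to 7 for wild-type grafts against wild type (6) and 7 to 11 for the contrast of contrasts (9). These settings fit fewer samples, and their counts can include genes not called with all arrays. The median of the contrast of contrasts was -0.32 without replicate 1 of the wild-type grafts, against -0.18.

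Whether the replicate numbers pair the samples is not stated in the labels. Deviations of same-numbered arrays had correlations of -0.18 to 0.10, and those of differently numbered arrays -0.18 to 0.20. These ranges overlap and rest on few arrays, so they cannot decide it. With a replicate block the calls were 18 in the knock-out, 10 between recipients, 8 and 3 in the comparisons with wild type and 8 for the contrast of contrasts. Levels near the floor are compressed, so differences of dim genes such as Mx2 are approximate.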
